A study of Mus musculus with 6 samples.

Results

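Perineuronal nets are sheets of extracellular matrix that enwrap the soma and proximal dendrites of certain neurons, above all the fast-spiking parvalbumin interneurons of the cortex. Their backbone is hyaluronan, a long sugar polymer that hyaluronan synthases spin out at the plasma membrane. Lecticans, which are core proteins carrying chondroitin sulphate chains, bind hyaluronan with one end, link proteins clamp that bond, and tenascin-R crosslinks the other ends. Chondroitin sulphate proteoglycans are also made by astrocytes and oligodendrocyte precursors, and they are known as inhibitors of axon growth around brain lesions.

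The set described here held 10 genes of this matrix, chosen by name, out of 15441 genes with a value in the series. They were the lecticans Acan (aggrecan), Bcan (brevican), Ncan (neurocan) and Vcan (versican), the receptor-type proteoglycan Ptprz1, the link protein genes Hapln1 and Hapln4, the tenascin gene Tnr, and the hyaluronan synthase genes Has2 and Has3. Of the 10, 9 were listed in at least 1 library and 7 reached 1 FPKM (fragment counts scaled to transcript length and library size) in at least 1 library.

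The libraries were made from the cortex of the injured hemisphere of male C57/BL6J mice, 6 to 8 weeks old. Stroke was induced by photothrombosis, in which the dye Rose Bengal is activated by cold light over the sensorimotor cortex, so that clots form in the lit vessels. There were 6 groups with 1 library each: sham-operated control mice, which had no illumination and were taken on day 7, and mice taken 1, 3, 7, 14 or 28 days after the stroke. Each library was RNA pooled from 3 mice. No group had a replicate, so no test was possible, the spread between animals is unknown, and every value compares libraries and not conditions. Whole cortex was used, hence fewer cells of a type and less RNA per cell cannot be told apart in any value.

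Read counts cannot be had from the deposited values, and only an average of 33.6 M reads per library is stated. The libraries listed 13263 to 13987 genes. A gene that is not listed in a library is not shown to be absent from it. The day 14 library stood apart: 38 genes with a median of at least 5 FPKM in the other 5 libraries were not listed in it, against 2 to 7 such genes in each other library. In addition, the ratio to sham was lower for longer transcripts on day 14 (Spearman's rho = -0.404 across 11541 genes, which are not independent replicates) and on day 1 (-0.255), but hardly on day 3 (0.00722), 7 (-0.0861) and 28 (-0.0342). The members are long: the longest transcript had a median of 7195 nt over the 7 members that reached 1 FPKM, and 3178 nt over all genes. Thus the ratios of the longer members on day 1 and 14 are given as deposited and after correction for length, which takes out the median ratio of genes of like length. Markers of tissue outside the cortex also varied, and not only on day 1. Oxt, Avp and Pmch, neuropeptide genes of the hypothalamus, were not listed in sham and reached 9.28, 18.9 and 26.2 FPKM on day 1. Avp also had 18.1 FPKM on day 7 and 11.7 on day 14. Ttr had 279 FPKM in sham, 450 on day 1 and 549 on day 28, its highest library. Drd2 and Adora2a were below sham on day 1 (7.31 against 8.15 FPKM, and 11.2 against 15.1). Both were highest on day 14, with 14.1 and 20.7 FPKM, as was Six3.

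The members Vcan, Ptprz1, Tnr and Hapln1 carried exon forms or starts that differed between libraries, and their sequences are shown first because the values below refer to them. In Vcan, the chondroitin sulphate chains attach to regions encoded by a pair of large alternative exons. In GRCm38 the alpha exon lies at chr13:89702918-89705797 (minus strand, 2880 bases) and the beta exon at chr13:89688285-89693501 (5217 bases). The form V0 holds both, V1 the beta exon alone and V2 the alpha exon alone. The junctions that tell them apart are read from GENCODE M21 transcripts, with 14 bases of the upstream exon in lower case and 14 bases of the downstream exon in capitals.
V0, alpha to beta exon: agaaaacaagacagGTCGATTGAGTGAT
V1, upstream exon to beta exon: ctactgctttaaacGTCGATTGAGTGAT
V2, alpha exon to downstream exon: agaaaacaagacagGACCTGATCTCTGC

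Ptprz1 encodes a transmembrane tyrosine phosphatase whose extracellular part can carry chondroitin sulphate. A large coding exon ends at either of 2 sites. The long form, chr6:22999200-23002746 (plus strand, 3547 bases), adds 2547 bases to the short form, chr6:22999200-23000199 (1000 bases), and both are spliced to the exon at chr6:23007274-23007418. The short form of the receptor is known to lack most of the stretch where chains attach. The capitals mark the shared downstream exon.
Long form: cagttcagaggcagAGGCCAGTAATAGT
Short form: accagtatacaatgAGGCCAGTAATAGT

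A small exon of 21 bases, or 7 codons, lies further downstream in Ptprz1 at chr6:23024714-23024734. It is shown in capitals between the flanking 17 bases of the neighbouring exons. The second line is the same stretch joined without it.
Small exon included: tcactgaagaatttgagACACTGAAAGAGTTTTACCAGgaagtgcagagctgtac
Small exon skipped: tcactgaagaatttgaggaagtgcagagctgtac

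RefSeq promoters (GRCm38.p6) were matched for 7 of the 10 members: Acan, Bcan, Ncan, Vcan, Ptprz1, Hapln1 and Tnr. The 250 bases before the start are printed for Tnr and Hapln1, whose start events differed between libraries, and for Ncan, which had 1 start in every library. The TATA box (searched as TATAAA), the CAAT box (searched as CCAAT) and the GC box (searched as GGGCGG) were looked for on both strands over 300 bases, which run 50 bases past the start, and matches are in capitals. Of 32851 promoters, 13.6% held the TATA box, 37.4% the CAAT box and 35.7% the GC box. Ncan held 1 TATA box on the reverse strand, which begins 11 bases before the start, and 1 GC box. The start event of Ncan in the files begins at 70120873, upstream of the RefSeq start at 70120844, so that this TATA box lies inside the listed transcript. Neither Tnr nor Hapln1 held any of these motifs in this window. The GC content was 56.7% in Ncan, 48.0% in Tnr and 54.3% in Hapln1, against a median of 52.7% over all promoters.
Ncan, chr8:70120845-70121094, minus strand: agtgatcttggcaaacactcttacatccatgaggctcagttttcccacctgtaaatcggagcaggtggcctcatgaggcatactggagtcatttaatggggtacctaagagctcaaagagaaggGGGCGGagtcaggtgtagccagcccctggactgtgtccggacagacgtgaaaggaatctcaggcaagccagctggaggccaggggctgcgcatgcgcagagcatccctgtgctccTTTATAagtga
Tnr, chr1:159523519-159523768, plus strand: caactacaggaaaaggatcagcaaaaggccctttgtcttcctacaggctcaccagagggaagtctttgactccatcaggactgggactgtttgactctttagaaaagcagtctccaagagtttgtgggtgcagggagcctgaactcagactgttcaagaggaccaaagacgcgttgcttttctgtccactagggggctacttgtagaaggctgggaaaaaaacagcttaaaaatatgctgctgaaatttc
Hapln1, chr13:89540386-89540635, plus strand: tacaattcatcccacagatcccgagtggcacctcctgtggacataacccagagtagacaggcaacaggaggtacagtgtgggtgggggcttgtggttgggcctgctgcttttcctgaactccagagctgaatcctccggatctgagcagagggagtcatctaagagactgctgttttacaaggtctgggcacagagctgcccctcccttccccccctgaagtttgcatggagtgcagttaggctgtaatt

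Bcan was the most abundant member in each library, followed by Ncan or Ptprz1. Bcan (chr3:87987531-88000230, minus strand), the smallest brain-specific lectican, had 61.2 FPKM in sham, 65.3 on day 1, 66.9 on day 3, 67.5 on day 7, 62.5 on day 14 and 58.3 on day 28. Its highest library was only 1.16 times its lowest, and 93.9% to 95.5% of the listed genes were below it in each library. Its log2 ratios to sham lay between -0.07 and 0.14. Ncan (chr8:70093085-70120873, minus strand), which astrocytes and neurons secrete, had 29.4 FPKM in sham, 25.1, 35.1 and 33.1 on day 1, 3 and 7, and 21.2 and 22.4 on day 14 and 28. It was thus highest on day 3 and 7 and lowest at the late time points, with a range of 1.65 times. Its log2 ratio to sham was -0.23 on day 1, 0.26 on day 3, -0.47 on day 14 and -0.39 on day 28. Corrected for length, the day 1 value was -0.02, that of day 14 was -0.19 and that of day 28 was -0.37, so that day 28 became its lowest library.

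Vcan (chr13:89655312-89742509, minus strand), a lectican of the looser matrix that oligodendrocyte precursors and perivascular cells make, was far less abundant. It had 1.77 FPKM in sham, 1.06 on day 1, 2.96 on day 3, 2.71 on day 7, 0.0424 on day 14 and 1.24 on day 28. Day 3 and 7 were 1.68 and 1.54 times sham, with log2 ratios of 0.72 and 0.59, at or above 87.0% and 84.9% of all genes compared. Set against day 28 in place of sham, they had log2 ratios of 1.20 and 1.08. Day 1 had a log2 ratio to sham of -0.69, or -0.43 after length correction. The day 14 value was the only one of any member that was at least 2-fold from sham, with a log2 ratio of -3.71, or -3.62 after length correction. It rests on a single end event at 0.0424 FPKM, and the start event of Vcan, which carried its value in the other 5 libraries, was not listed on day 14. Whether this is a loss of the transcript was not tested. Acan (chr7:79053483-79115099, plus strand), the lectican that marks mature perineuronal nets, was not listed in sham, day 3 or day 7, and had 0.444 FPKM on day 1, 0.859 on day 14 and 0.571 on day 28. None of its start events was listed, and its values came from its end event, beside a skipped exon listed at the same value on day 1. That end lies 2 bases from the end of Hapln3 on the opposite strand.

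Ptprz1 (chr6:22875502-23052916, plus strand), expressed by astrocytes and oligodendrocyte precursors, had 26.9 FPKM in sham and 20.1, 34.7, 26.7, 19.0 and 27.8 on the 5 days after stroke, in order of time. The high point was day 3 at 1.29 times sham, the low points were day 1 and 14, and day 28 was within 1.04 times of sham. Its log2 ratios on day 1 and 14, -0.42 and -0.50 as deposited, were -0.22 and -0.23 after length correction. Tnr (chr1:159523769-159931729, plus strand), made by oligodendrocytes and interneurons, followed the same order at the extremes, with 12.01 FPKM in sham and 7.45, 15.6, 9.20, 7.02 and 9.22 thereafter. Day 3 exceeded the other 5 libraries, and all other days were below sham. The log2 ratio of Tnr was -0.68 on day 1 and -0.77 on day 14, or -0.41 and -0.49 after length correction. The day 14 ratio sets an end event on day 14 against summed starts in sham. As deposited, end events alone gave -0.60 on day 14 and start events alone -3.73.

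The 2 link protein genes had different orders of libraries. Hapln1 (chr13:89539796-89611652, plus strand), the link protein that stabilizes lectican binding in nets, had 6.22 FPKM in sham and 3.73, 6.86, 5.21, 3.53 and 5.49 on day 1 to 28. Day 1 and 14 were the low points, and their log2 ratios to sham, -0.72 and -0.80, were -0.59 and -0.61 after length correction. Hapln4 (chr8:70083457-70090862, plus strand), a brain link protein of perineuronal nets, had 18.0 FPKM in sham, 22.7 on day 1, 15.1 on day 3, 13.6 on day 7, 17.1 on day 14 and 16.1 on day 28. It was above sham only on day 1 (log2 ratio 0.33) and lowest on day 7 (-0.40), the opposite of the lecticans Ncan and Vcan at these days.

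Of the hyaluronan synthases, Has2 (chr15:56665627-56694539, minus strand), the main synthase of mesenchymal cells, was not listed in any of the 6 libraries. Has3 (chr8:106870242-106884566, plus strand) was listed only on day 7 with 0.185 FPKM. Neither could be compared with sham. The related Has1 was listed on day 7 (0.523 FPKM) and day 28 (0.762 FPKM).

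**Figure D1:**
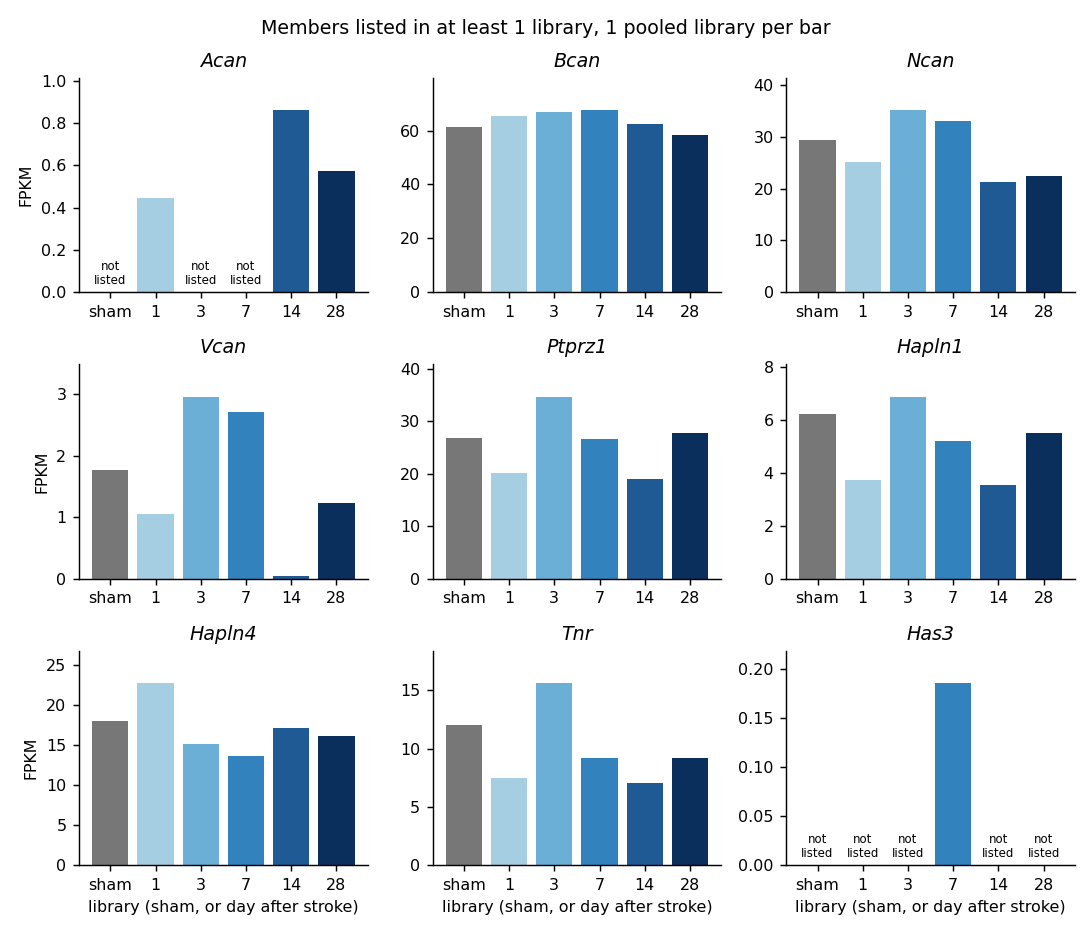
FPKM of the 9 members listed in at least 1 library (vertical axes, each from 0 with its own scale) in the sham library and on each day after the stroke; each bar is 1 library pooled from 3 mice, without replicates. Ncan, Vcan, Ptprz1, Hapln1 and Tnr have their highest bar on day 3 and their lowest on day 14, while Bcan stays between 58.3 and 67.5 FPKM and Hapln4 peaks on day 1 at 22.7 FPKM.

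Of the 7 members compared, 5 shared their highest and lowest library. Ncan, Vcan, Ptprz1, Hapln1 and Tnr were highest on day 3 and lowest on day 14. Among the 7 compared, these 5 also have the longest transcripts, 5715 to 12427 nt. Bcan and Hapln4, with 3141 and 3648 nt, had other highest and lowest libraries, which also differed between them. Acan (7355 nt) and Has3 (5912 nt) are long as well but could not be compared. After length correction all 5 were still highest on day 3, and 4 of them, all but Ncan, were still lowest on day 14. Relative to the other genes in each library, the share of listed genes below Tnr was 75.5% on day 3 and 52.2% on day 14, and for Hapln1 it was 52.4% and 34.2%. The share of all genes that were highest on day 3 and lowest on day 14 was not counted. Thus 5 of 7 cannot be set against a background.

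On day 1, 0 of the 7 members compared was at least 2-fold higher or lower, where 5.11% of all 11790 genes were higher and 4.48% lower. At day 3 and 7 none was past 2-fold either, where 8.54% and 8.53% of all genes were higher and 2.53% and 2.12% lower. At day 14, Vcan was 1 of 7 that was lower, beside a background of 6.92% lower and 8.97% higher. At day 28 none was past 2-fold, where 3.68% of all genes were higher and 2.79% lower. A count of 0 or 1 out of 7 lies near these backgrounds and is no result about the members.

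The medians of the 7 log2 ratios were -0.42 on day 1, 0.26 on day 3, -0.01 on day 7, -0.50 on day 14 and -0.18 on day 28. Over all genes the medians were 0.01, 0.03, 0.03, 0.10 and 0.03. Length correction brought the members' medians to -0.22 on day 1 and -0.23 on day 14, and left day 3 at 0.22 and day 28 at -0.20. Below sham were 5 members on day 1, 1 on day 3 (Hapln4), 4 on day 7, 6 on day 14 and 6 on day 28, where 48.5%, 46.6%, 46.2%, 42.6% and 46.2% of all genes were below sham. The part of transcript length in the lower values on day 1 and 14 beyond this correction was not tested.

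**Figure D2:**
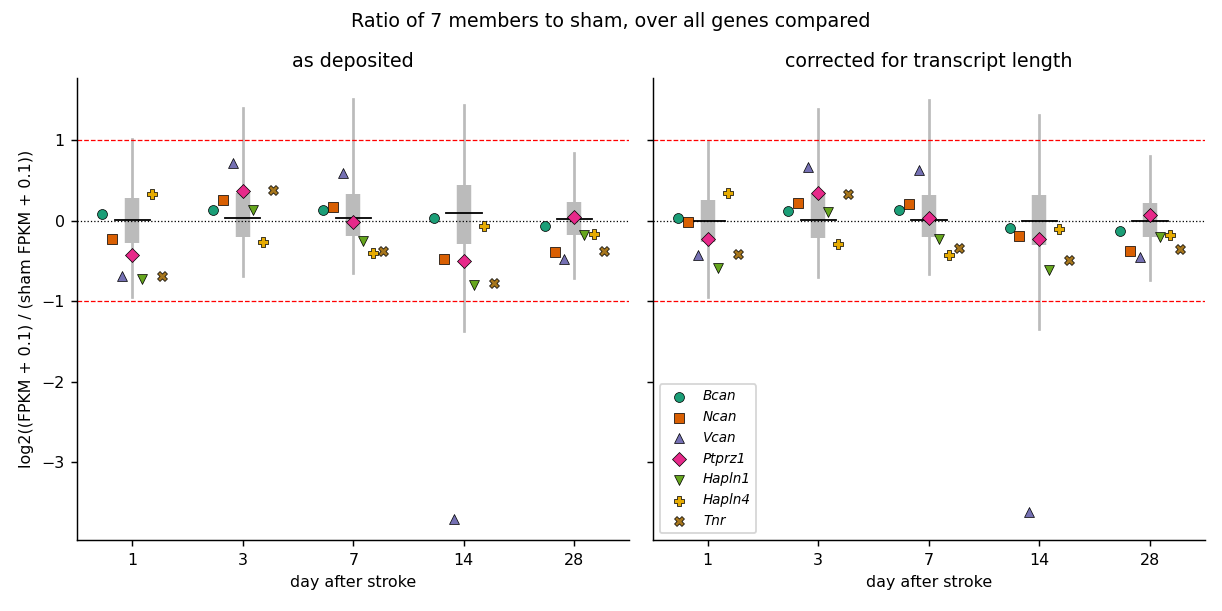
log2 of the ratio to sham (vertical axis, with 0.1 FPKM added to both values) at each day post-stroke, as deposited on the left and corrected for transcript length on the right; symbols are the 7 members, the grey bar and line are the middle 50% and 90% of all genes compared, the short black line is their median, and the red dashed lines are 2-fold. Vcan on day 14 (-3.71 and -3.62) is the single member value outside the 2-fold lines, and the low values on day 1 and 14 lie closer to 0 on the right.

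Beside these gene values, the files list events within a gene, such as a start, an end or an alternative exon, each with its own FPKM. Inside the annotated spans 46 distinct events of the members were listed, of which 30 reached 1 FPKM in at least 1 library. The 10 events of Ptprz1 gave the fullest record. The short form of its large exon had 18.2 FPKM in sham, 13.2 on day 1, 25.3 on day 3, 21.3 on day 7, 9.13 on day 14 and 18.2 on day 28. The long form, which holds more of the attachment region, had 8.64, 6.72, 6.42, 5.48, 5.91 and 9.60 FPKM in the same order. The short form therefore held 67.8% of the sum in sham, 66.3% on day 1, 79.8% on day 3, 79.5% on day 7, 60.7% on day 14 and 65.5% on day 28. On day 3 the short form was above its sham value and the long form below it. Both forms summed to 31.8 FPKM on that day, below the gene value of 34.7, so that part of the assembled transcripts entered neither form.

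The small exon of Ptprz1 parted the libraries differently. Its inclusion had 20.01 FPKM in sham, 15.3 on day 1, 31.8 on day 3, 23.7 on day 7, 13.4 on day 14 and 19.8 on day 28. Skipping had 6.86, 4.59, 2.97, 3.05, 1.67 and 8.01 FPKM. Included transcripts made up 74.5% in sham, 77.0% on day 1, 91.5% on day 3, 88.6% on day 7, 88.9% on day 14 and 71.2% on day 28. Sham, day 1 and day 28 thus lay between 71.2% and 77.0%, and day 3, 7 and 14 between 88.6% and 91.5%, whereas the short form of the large exon was at its lowest share on day 14. Both exons share the reads of 1 gene, and no interval can be given for these shares without counts. On day 7 the skipping value, 3.05 FPKM, equalled that of a retained intron at chr6:22986315-22987331, listed on that day alone. On day 14 the skipping value, 1.67 FPKM, equalled that of a start at chr6:22972505, also listed on that day alone. Whether the shares differ by exon choice or by the assembly of transcripts was not tested. At day 14 the 2 exon events summed to 15.0 FPKM, below the gene value of 19.0, so part of the assembled transcripts entered neither form.

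In Vcan, V2 was the leading form in each library that listed a form. V2 had 1.33 FPKM in sham, 0.953 on day 1, 2.30 on day 3, 2.05 on day 7 and 1.16 on day 28, which was 77.9%, 94.9%, 85.9%, 83.0% and 100% of the listed forms. V2 is known as the main versican of the adult brain. V0, with both exons, was not listed in sham and day 28, and had 0.0511 FPKM on day 1, 0.377 on day 3 and 0.421 on day 7. V1 had 0.378 FPKM in sham and 0.000808 on day 7, and was not listed elsewhere. No form was listed on day 14. The V0 and V1 values were all under 1 FPKM.

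Start events differed in Tnr and Hapln1. In Tnr the most upstream start, whose promoter is printed above, had 11.7 FPKM in sham, 6.30 on day 1, 7.00 on day 3, 9.00 on day 7, 0.235 on day 14 and 8.54 on day 28. A start at chr1:159737510 had 8.14 FPKM on day 3 and 0.145 to 0.969 FPKM in sham, day 1, 7 and 28. It held 52.1% of the start sum on day 3, against 1.67% to 13.0% in those 4 libraries. The day 3 excess of Tnr over sham therefore lay in the downstream start, while its upstream start was below sham. At day 14 all starts of Tnr summed to 0.811 FPKM although its end event had 7.02 FPKM, so that start and end events disagreed in that library. In Hapln1 the start with a RefSeq promoter, chr13:89540636, was listed only on day 3, with 6.86 FPKM, and the start at chr13:89584304 carried 89.1% to 100% of the sum in the other 5 libraries. Neither first exon matched an annotated GENCODE M21 exon in both its bounds.

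In Bcan an end event inside the gene, at chr3:87992514-87993642 (an exon of Bcan-203 and Bcan-206), had 10.1 FPKM in sham, 2.96 on day 1, 9.16 on day 3, 6.08 on day 7, 3.19 on day 14 and 2.78 on day 28. This was 16.5% of the gene value in sham, 13.7% on day 3, and 4.53% to 9.01% in the other libraries. The flat total of Bcan thus held an early end that was more than 2 times higher in sham and on day 3 than on day 1, 14 and 28. In Hapln4 a start exon that extends through the first intron, chr8:70083457-70084540, had 2.01 FPKM in sham and 3.22 on day 3, and 0.00512 to 0.178 FPKM elsewhere. A longer start exon across the same intron, chr8:70083457-70085144, was listed on day 1 alone, with 2.42 FPKM. Ncan had 1 start and 1 end in all 6 libraries.

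**Figure D3:**
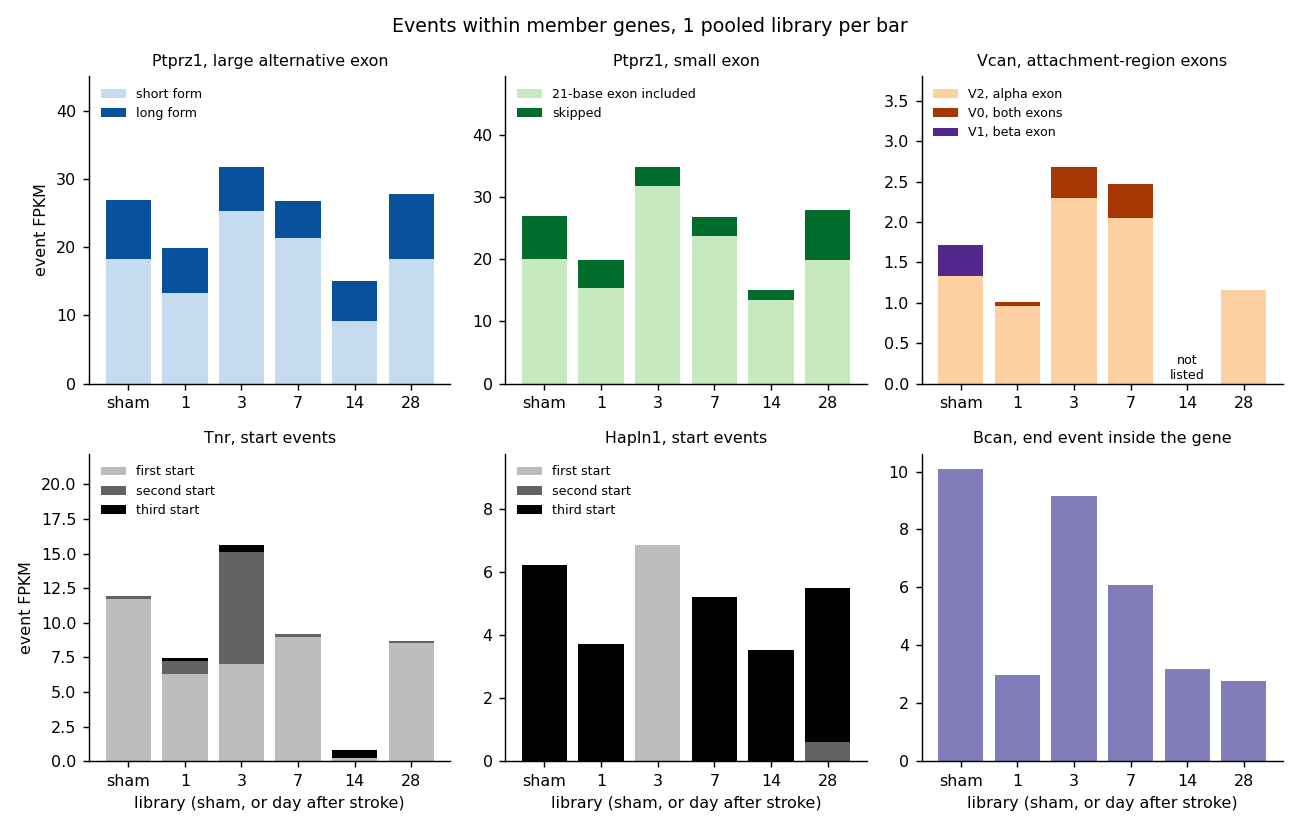
FPKM of events within Ptprz1, Vcan, Tnr, Hapln1 and Bcan (vertical axes, each from 0) in the sham library and at each day post-stroke, with alternative forms stacked; each bar is 1 pooled library. The long form of Ptprz1 takes 20.2% and 20.5% of its bars on day 3 and 7 and 32.2% to 39.3% elsewhere, the skipped small exon takes 8.54% to 11.4% on day 3, 7 and 14 and 23.0% to 28.8% elsewhere, the Tnr bar on day 3 is 52.1% the downstream start, and the Hapln1 start on day 3 is another one than in the other libraries.

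Each lectican gene lies beside a link protein gene in the mouse genome. Hapln4 and Ncan are 2222 bases apart and convergent, Hapln1 and Vcan 43659 bases apart and also convergent, and Hapln2 and Bcan are 21519 bases apart on the same strand. The FPKM of Hapln4 was 0.612 times that of Ncan in sham, 0.903 on day 1, 0.429 on day 3, 0.411 on day 7, 0.807 on day 14 and 0.719 on day 28. This ratio was thus highest on day 1 and lowest on day 3 and 7. The ratios of this paragraph are as deposited and not corrected for length. On day 1 and 14 the log2 ratios to sham were 0.33 and -0.07 for Hapln4, and -0.23 and -0.47 for Ncan. After length correction they were 0.34 and -0.10 for Hapln4, and -0.02 and -0.19 for Ncan, so that the genes lay closer together. The FPKM of Hapln1 was 3.52, 3.53, 2.31, 1.92 and 4.44 times that of Vcan in sham and on day 1, 3, 7 and 28. On day 14 it was 83.2 times, which rests on the single end event of Vcan.

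The rest of the pathway was followed through lists of genes by role, of which the few with the widest ratios are named. Among 11 other proteoglycans and net components, 2 of 9 compared were at least 2-fold higher and 1 lower on day 1, 3 higher on day 3, 2 higher on day 7, 2 higher and 1 lower on day 14, and none on day 28. Over all genes, 5.11%, 8.54%, 8.53% and 8.97% were higher on day 1, 3, 7 and 14, and 4.48% and 6.92% lower on day 1 and 14. Tnc, the tenascin of injured and developing tissue, had 1.00 FPKM in sham, 2.56 on day 1, 3.47 on day 3, 2.84 on day 7, 1.76 on day 14 and 0.831 on day 28. Its relative Tnr was also highest on day 3, but lay below sham on day 1, 7 and 14, where Tnc lay above it. Bgn (biglycan), a small proteoglycan of connective tissue, had 6.34 FPKM in sham and 17.4, 20.2 and 17.2 on day 3, 7 and 14. Nptx2, a secreted synaptic pentraxin that binds nets, had 16.0 FPKM in sham, 81.2 on day 1 and 12.8 to 17.2 afterwards. Sema3a, a repellent guidance cue held in nets, had 3.16 FPKM in sham, was not listed on day 1, and had 0.448 FPKM on day 14.

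Of 21 genes that build or sulphate chondroitin chains, 15 to 17 could be compared and 1 was lower on day 1, 1 higher on day 3, 7 and 28, and none on day 14. Over all genes 4.48% were lower on day 1, and 8.54%, 8.53% and 3.68% higher on day 3, 7 and 28, so that these counts are no result about the list. Csgalnact1, which starts the chondroitin chain, had 3.68 FPKM in sham and 1.76 on day 1, a log2 ratio of -1.02. Dsel, an epimerase that turns chondroitin into dermatan sulphate, had 0.851 FPKM in sham, 2.44 on day 3, 1.95 on day 7 and 1.92 on day 28, and was not listed on day 1 and 14. Chsy3, a chain-extending synthase, had 3.17 FPKM in sham and 1.63 on day 14 (log2 ratio -0.92). B3gat3, which completes the linker to the core protein, had 70.4 FPKM in sham and 39.2 on day 3 (-0.84).

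Of 7 genes of hyaluronan supply and binding, 2 to 5 could be compared, and 1, 3, 1, 1 and 0 of them were at least 2-fold higher on day 1, 3, 7, 14 and 28, with none lower, where 5.11%, 8.54%, 8.53%, 8.97% and 3.68% of all genes were higher. Of the 3 on day 3, 2 were listed in both libraries. Cd44, the hyaluronan receptor of glia and leukocytes, had 0.582 FPKM in sham, 4.01, 5.33, 4.46 and 3.86 on day 1, 3, 7 and 14, and 0.649 on day 28. Fbln2, a matrix protein that binds lecticans, had 0.916 FPKM in sham, 2.38 on day 3 and 0.135 on day 14. Tnfaip6, a hyaluronan-binding protein, stayed between 3.01 and 5.27 FPKM, and Ugp2, which makes a sugar precursor, between 29.3 and 42.4 FPKM. Of 10 breakdown genes, 8 could be compared, of which 1 was at least 2-fold higher and 1 lower on day 1, 2 were higher on day 3, 7 and 14 alike, and none was past 2-fold on day 28. Over all genes, 5.11% were higher and 4.48% lower on day 1, and 8.53% to 8.97% higher on day 3, 7 and 14. The 2 were the lysosomal glycosidases Gusb, with 2.78 FPKM in sham and 26.7 on day 7, and Hexa, with 18.1 and 56.4. After length correction the day 14 log2 ratio of Hexa, 1.15, was 0.88. Ids, a lysosomal sulphatase, had 49.7 FPKM in sham and 28.5 on day 28 (log2 ratio -0.80). Cemip, a hyaluronan-degrading protein, had 1.37 FPKM in sham and 0.365 on day 1.

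Among 13 lectican-cleaving proteases and their inhibitors, 3, 4, 5 and 4 of the 8 to 10 compared were at least 2-fold higher on day 1, 3, 7 and 14, and none of 5 on day 28. The shares over all genes were 5.11%, 8.54%, 8.53% and 8.97% on day 1, 3, 7 and 14. Of the higher genes, 2, 2, 3 and 2 were listed in both libraries. A single gene was lower, Adamts1 on day 14. Timp1, a metalloproteinase inhibitor, had 0.278 FPKM in sham, 16.2 on day 1, 16.5 on day 3, 5.33 on day 7 and 6.86 on day 14, and was not listed on day 28. Adamts1, a protease that cuts aggrecan and versican, had 1.83 FPKM in sham, 5.44 on day 1, 3.69 on day 3 and 2.55 on day 7, and was not listed on day 14. Adamts9 had 0.484 FPKM in sham, 0.0534 on day 1, 1.14 on day 3, 1.27 on day 7 and 0.0151 on day 28, and was not listed on day 14. Adamts15 had 0.451 FPKM in sham, 1.10 on day 7 and 1.13 on day 14. None of the 7 receptors for proteoglycans and tenascins was past 2-fold at any day. Ptprs, the phosphatase through which chondroitin sulphate stops axons, had 72.2 FPKM in sham, 48.3 on day 3 and 43.0 on day 7 (log2 ratio -0.75), and 73.8 on day 14. Its relatives Ptprd and Ptprf and the Nogo receptor gene Rtn4r had log2 ratios of -0.56, 0.17 and -0.45 on day 7.

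**Figure D4:**
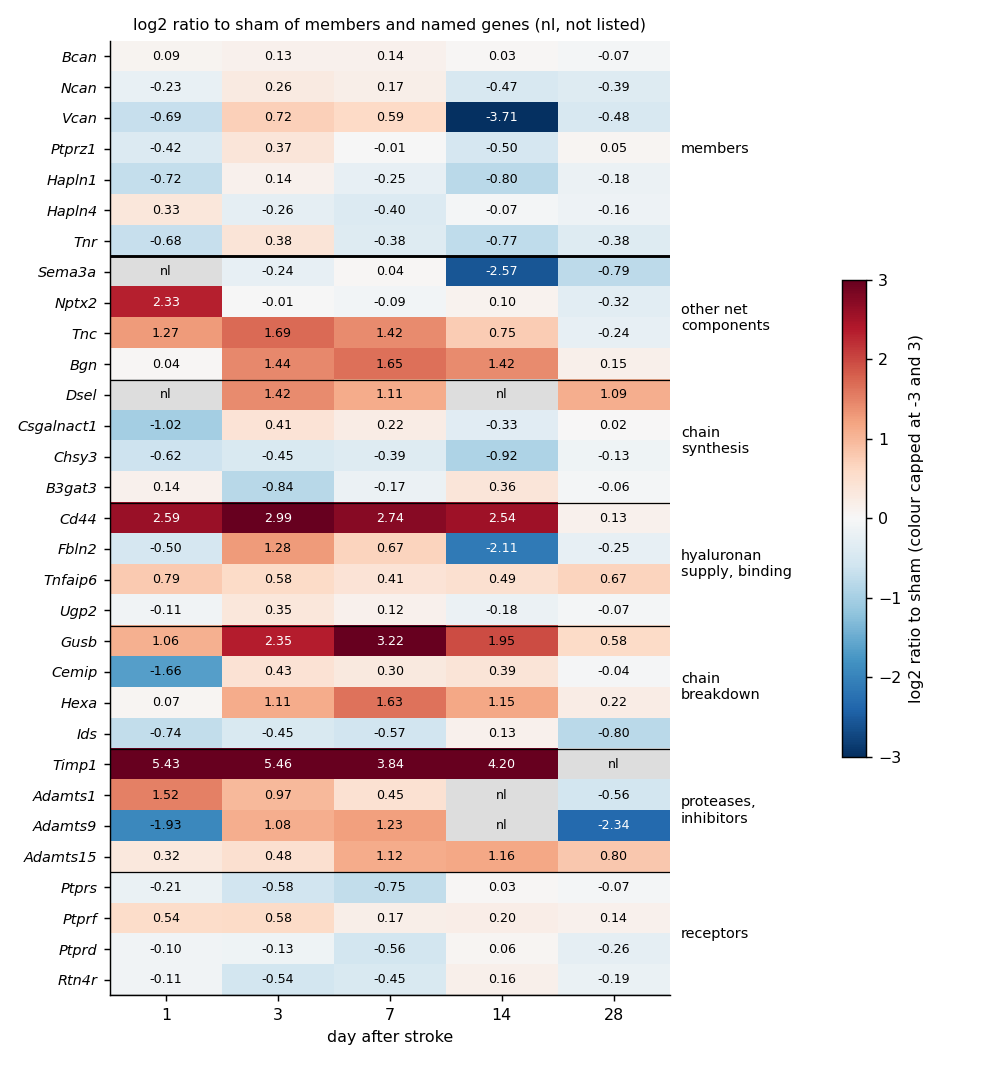
log2 ratio to sham (colour and printed value, horizontal axis day post-stroke) of the 7 members compared, above the thick line, and of up to 4 genes with the widest ratio in each pathway list; nl means not listed in one of the libraries. The members are pale outside Vcan on day 14, whereas Cd44, Gusb and Timp1 exceed 2.5 in at least 1 library.

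Markers of the cells that carry or make the matrix were read in the same libraries, and their part in the members' values was not tested. Of 9 genes in the list of parvalbumin interneurons none was past 2-fold on day 1, 3, 7 or 28. Their summed FPKM was 184 in sham and 166 to 200 post-stroke. Gad1 and Gad2, which are not specific to these cells, carried much of this sum, with 70.3 and 22.0 FPKM in sham. The markers went both ways. Pvalb had 47.5 FPKM in sham and was below this on every day, from 33.4 on day 7 to 46.3 on day 14. Erbb4 had 4.41 FPKM in sham and 2.30 on day 1. Gad2 had 22.0 FPKM in sham and 29.4 on day 28. Kcnc2 had 7.01 in sham and 11.4 on day 1, with as little as 58.4% of its value inside its annotated span. At day 14, Kcns3, Syt2 and Erbb4 were not listed, as Vcan's start was not. The sum of 6 neuronal markers was 1640 FPKM in sham, 1240 on day 3, 1210 on day 7 and 1030 on day 14. Map2, the only 1 of these past 2-fold on day 14 as deposited, had 113 FPKM in sham, 164 on day 3 and 23.7 on day 14. The others had day 14 log2 ratios to sham from -0.89 (Slc17a7) to 0.03 (Rbfox3). After length correction Map2 was at -2.02 and Slc17a7 at -1.01 on day 14, so that both were past 2-fold.

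Of 7 astrocyte markers only Gfap was past 2-fold, with 85.8 FPKM in sham, 698 on day 3 and 150 on day 28. Aqp4, Slc1a2, Slc1a3 and Gja1 were also highest on day 3, with 50.6, 234, 176 and 77.1 FPKM. Of the other astrocyte markers, S100b was highest on day 14 (100 FPKM, against 91.1 on day 3) and Aldh1l1 on day 1 (28.1 FPKM, against 25.2 on day 3). Of 6 markers of oligodendrocyte precursors, which make Vcan and Ptprz1, only Cspg4 (1.97 FPKM in sham, 3.41 on day 7, 1.10 on day 28) and Olig2 were listed, and Pdgfra, the defining marker, was listed nowhere. Fibroblast and pericyte markers, cells that also express Vcan and Has2, summed to 28.1 FPKM in sham, 30.4 on day 1, 89.3 on day 3, 109 on day 7, 97.0 on day 14 and 27.9 on day 28. At least 2-fold higher were 5, 4 and 5 of the 6 on day 3, 7 and 14 (8.54%, 8.53% and 8.97% of all genes). Pdgfrb was not among them, with 3.18 FPKM in sham and 4.33, 4.30 and 3.95 on these days. Of these 6 markers 1, Dcn, and 1 precursor marker, Cspg4, are also in the list of other proteoglycans. Microglia and macrophage markers summed to 57.8, 59.8, 165, 264, 211 and 70.5 FPKM in sham and on day 1, 3, 7, 14 and 28. On day 14, 5 of these 6 were at least 2-fold higher (8.97% of all genes), 4 of them listed in both libraries. P2ry12 went the other way, with 18.0 FPKM in sham, 7.01 on day 1 (log2 ratio -1.35) and 13.3 on day 14. Of 4 oligodendrocyte markers, Mag alone was past 2-fold, on day 7 (33.8 FPKM in sham, 69.0 on day 7). Its log2 ratio of 1.03 was 0.99 after length correction. The summed fibroblast and microglia markers were above sham on day 14, where Vcan, Ncan, Ptprz1, Hapln1 and Tnr were at their lowest as deposited.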

How the data were processed

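The study deposited 6 tables, 1 per library, of RNA pooled from 3 mice. Poly(A) RNA was sequenced strand-specifically as paired reads of 150 bases. Trimmomatic 0.30, HISAT2 2.0.1, HTSeq 0.6.1 and the mm10 build (GRCm38) are named in the submitters' processing notes; the assembler that gave the events is not given in the sources used here. The deposited values are FPKM per event (start, end, exon skipping, intron retention, alternative exon), scaled by the authors to length and library size.

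The value of a gene was the largest of its summed starts, summed ends and any single event. Ratios were log2((FPKM + 0.1)/(sham FPKM + 0.1)), which understates changes of low genes, over genes with at least 1 FPKM in 1 of the 2 libraries. A log2 ratio of at least 1 in size was called, with genes not listed counted as 0, but no ratio is given for these. With 1 library per group no test was run. The length correction used 20 bins of the longest GENCODE M21 transcript. The value rule, the ratios and this correction were tested on simulated data. Analysis used Python 3.11.15, pandas 2.3.3 and numpy 2.4.6. All 10 members are reported; of each list, up to 4 genes with the widest ratio to sham, listed in both libraries with at least 1 FPKM in 1, are named, and Has1, Hapln2, Hapln3 and further cell markers were named after their values were seen. The members and lists were chosen with earlier results of these data known. A gene of the breakdown list is not reported here. The alternatives of the closing section covered pseudocount, filter, scaling, value rule and threshold, and for single member ratios also day 28 as the reference.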

Additional observations from a re-analysis of the deposited data

How the results depend on the processing

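Of 55 alternative values of the members' median log2 ratios all lay within 1.5-fold of the values given, and 399 of 407 alternative values of single member ratios did so. The changes of filter only choose which genes are compared, and the listed members lay wholly inside their annotated spans. These alternatives return the given ratio by construction, and the given median where the same members are compared. Both counts therefore overstate how stable the values are. Many of the given ratios are themselves smaller than 1.5-fold, so that a value of opposite sign can still count as within it. Ncan at day 1, for example, was -0.23 as given and 0.16 with day 28 as the reference, a change included in the 407 values. Of the counts of members past 2-fold, 116 of 130 stayed as given. With no filter on low values 1 member was higher at day 1, 7, 14 and 28 instead of 0, and with length-trend correction 1 was higher at day 14. With the sum of transcript end events 1 member was lower at day 1 and 28 (Bcan, with log2 ratios of -1.74 and -1.82, whose full-length end was not listed) and 1 was higher at day 3 (Vcan, 2.06). The day 14 count stayed at 1 with end events, but the gene was Bcan (-1.63), as Vcan was under 1 FPKM in both libraries and could not be compared. With the sum of transcript start events 2 members were lower at day 14, since Vcan had no start there and Tnr gave -3.73. Requiring 1 FPKM in both libraries left 0 lower at day 14. At a threshold of 1.5-fold 3 members were lower at day 1, 1 higher at day 3, 1 higher at day 7 and 3 lower at day 14. The ratio of Vcan at day 14 ran from -5.08 with a pseudocount of 0.01 FPKM to -1.41 with 1 FPKM. Where no cause is given above, the cause was not tested. No paired analysis was possible because each group had 1 library. Depth is unknown, so the precision of low values, such as those of Acan, Has3 and the V0 and V1 forms, cannot be stated.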
